A study of Mus musculus with 6 samples.

Results

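The netrin, Slit, semaphorin and ephrin guidance genes examined here are 48 mouse genes: 23 ligands and 25 receptors. They were chosen by symbol, with earlier results of these data known. Each matched 1 entry, through its RefSeq identifiers, in a table of 23290 entries made from embryonic hearts. Controls were 3 hearts of genotype Nkx2-5+/+,Casz1f/+, which carry 1 floxed allele of the zinc finger transcription factor gene Casz1 and no Cre. Mutants were 3 hearts of genotype Nkx2-5Cre/+,Casz1f/f, in which both Casz1 alleles are floxed and Cre recombinase sits at 1 allele of the cardiac homeobox gene Nkx2-5. All embryos were of C57BL/6 background, were taken at E10.5, and carried at least 1 floxed Casz1 allele. The study asks which heart genes differ when Casz1 is mutated. Deletion is limited to cells in which the Nkx2-5 locus has driven Cre, and RNA of other heart cells is included. Cre and the altered Nkx2-5 allele are present in the mutants only, so their effects and that of Casz1 loss cannot be told apart.

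Expression is given as FPKM, fragments per kilobase of transcript, scaled to the mapped fragments of the library, which allows levels to be compared between genes. The table holds 1 pooled value per genotype, so the value in each heart, the spread between hearts and the sequencing depth are unknown here. All FPKM, p and q values below are the authors' own, from their deposited Cuffdiff table, and "called" means a q under 0.05 there. The error (SE, standard error) and the 95% interval given with a log2 fold change follow from the authors' test statistic. Casz1 itself read 6.61 FPKM in the controls and 4.68 FPKM in the mutants. Its log2 fold change was -0.50 (SE 0.306), and the q was 1.00 in the authors' deposited table. This value per gene does not separate intact transcripts from any that lack the deleted part. Nkx2-5 read 143.0 and 82.9 FPKM, with a log2 fold change of -0.79 (SE 0.295, 95% interval -1.36 to -0.21). The interval excludes 0, but the gene was not called (p = 0.00755, q = 0.536 in the authors' deposited table). Heart identity was checked on cardiomyocyte markers, and the 8 with a valid test stood between 8.59 and 7496 FPKM. Of these, 7 had a log2 fold change below 0 (list median -0.27), among them Nppa at 1755 and 888 FPKM (p = 0.0123, q = 0.746 in the authors' deposited table), while Myl7 read 5080 and 7496 FPKM, and 0 were called.

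Guidance genes encode secreted or membrane-bound cues and the receptors that read them, and they were first described in growing axons. Netrins bind the receptors DCC and neogenin and the UNC5 family, Slits bind Robo receptors, and semaphorins bind plexins, with neuropilins as coreceptors for most secreted class 3 members. Ephrins are anchored to the cell surface and signal through Eph receptor kinases on neighbouring cells, and also back into the cell that carries them. In the embryo several of these systems shape vessels and the heart: Sema3c with Plxna2, Plxnd1 and neuropilins in outflow tract septation, and Efnb2 with Ephb4 in the division of arteries from veins.

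Both Slit2 and Slit3 host a copy of the microRNA miR-218, whose mature sequences are shown because they are part of the annotation at these 2 member loci. Mir218-1 lies within Slit2 at chr5:48223966-48223986 (5p arm, plus strand) and Mir218-2 within Slit3 at chr11:35616840-35616860 (5p arm, plus strand). Each is on the strand of its host and overlaps 0 annotated exons of it, so both are intronic. Sequences are from RefSeq on GRCm38.p6, written 5′ to 3′, with the seed (bases 2 to 8) in capitals. The 5p arm is identical at the 2 loci, while the 3p arms have different seeds.
mmu-miR-218-5p: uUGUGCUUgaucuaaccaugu
mmu-miR-218-1-3p: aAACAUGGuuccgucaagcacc
mmu-miR-218-2-3p: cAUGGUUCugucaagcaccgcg
The entries of Mir218-1 and Mir218-2 were marked as too low for a test and are listed at 0 in both genotypes, and libraries of this kind are not made to measure mature microRNAs. The host genes are described with the Slits.

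Of the 48 members, 45 had a valid test. The other 3 were Nrp2, whose test failed, Slit1, which was too low for a test, and Efna2, whose locus held too many fragments. Ntn1, which encodes the secreted cue netrin-1, was called lower in the mutant hearts, and 0 members were called higher. The call rate was 1 of 45 tested members (2.22%), against 0.422% of the 15387 tested entries of the whole table called in either direction (0.305% higher, 0.117% lower). With 1 called member, this share says little about the group. An unadjusted p under 0.05 was found for 5 of 45 members (11.1%), which were Ntn1, Dcc and Sema6d on the lower side and Unc5c and Ephb2 on the higher side. For all tested entries the share was 3.17% (1.99% higher, 1.18% lower). Because members were chosen with earlier results of these data known, the gap between these shares is no result about the group.

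Most guidance genes had similar levels in the 2 genotypes. The log2 fold change was above 0 for 20 tested members and below 0 for 25, with a median of -0.045 beside -0.017 over all tested entries with a finite fold. It was smaller than 0.25 in size for 24 members, at least 0.5 for 10 and at least 1 for 2 (Ntn1 and Dcc). The median SE was 0.311. For 26 members the whole 95% interval lay inside a log2 of 1 on either side of 0, so a 2-fold difference lies outside those intervals. For the other 19 members the interval reached that size, which this test therefore leaves undecided. The smallest change called among all genes was 2.29-fold.

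**Figure D1:**
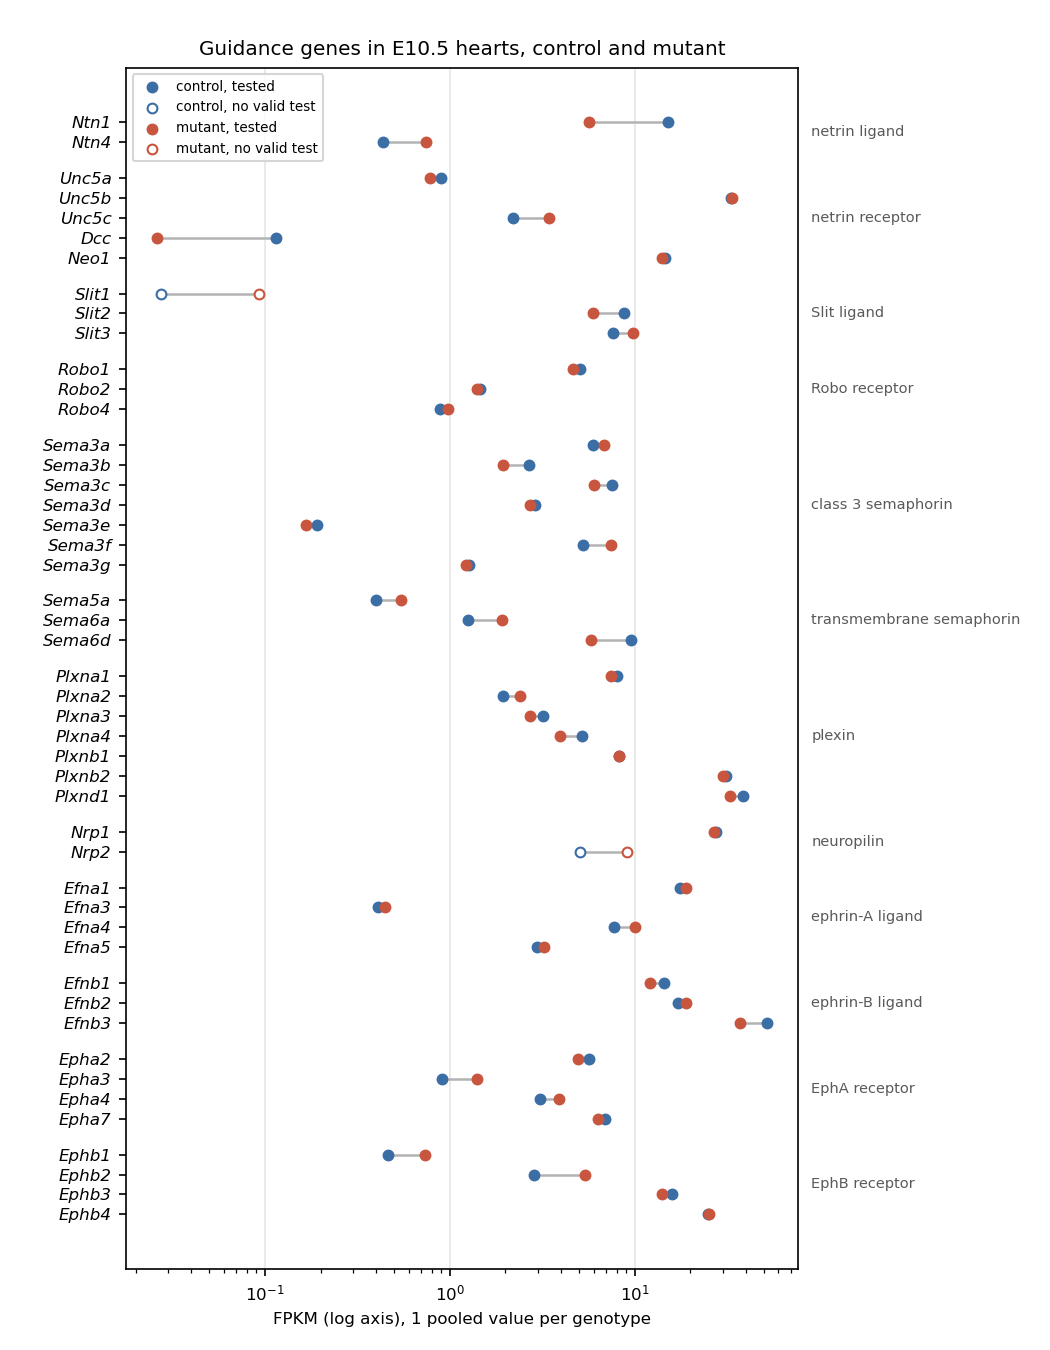
FPKM (log axis) of 47 guidance genes in control (blue) and mutant (red) hearts, 1 pooled value per genotype, grouped by role; open circles mark Slit1 and Nrp2, which had no valid test, and Efna2 is left out because it has no usable value. Ntn1 is the widely separated pair among members above 10 FPKM in either genotype, at 15.1 and 5.67 FPKM.

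**Figure D2:**
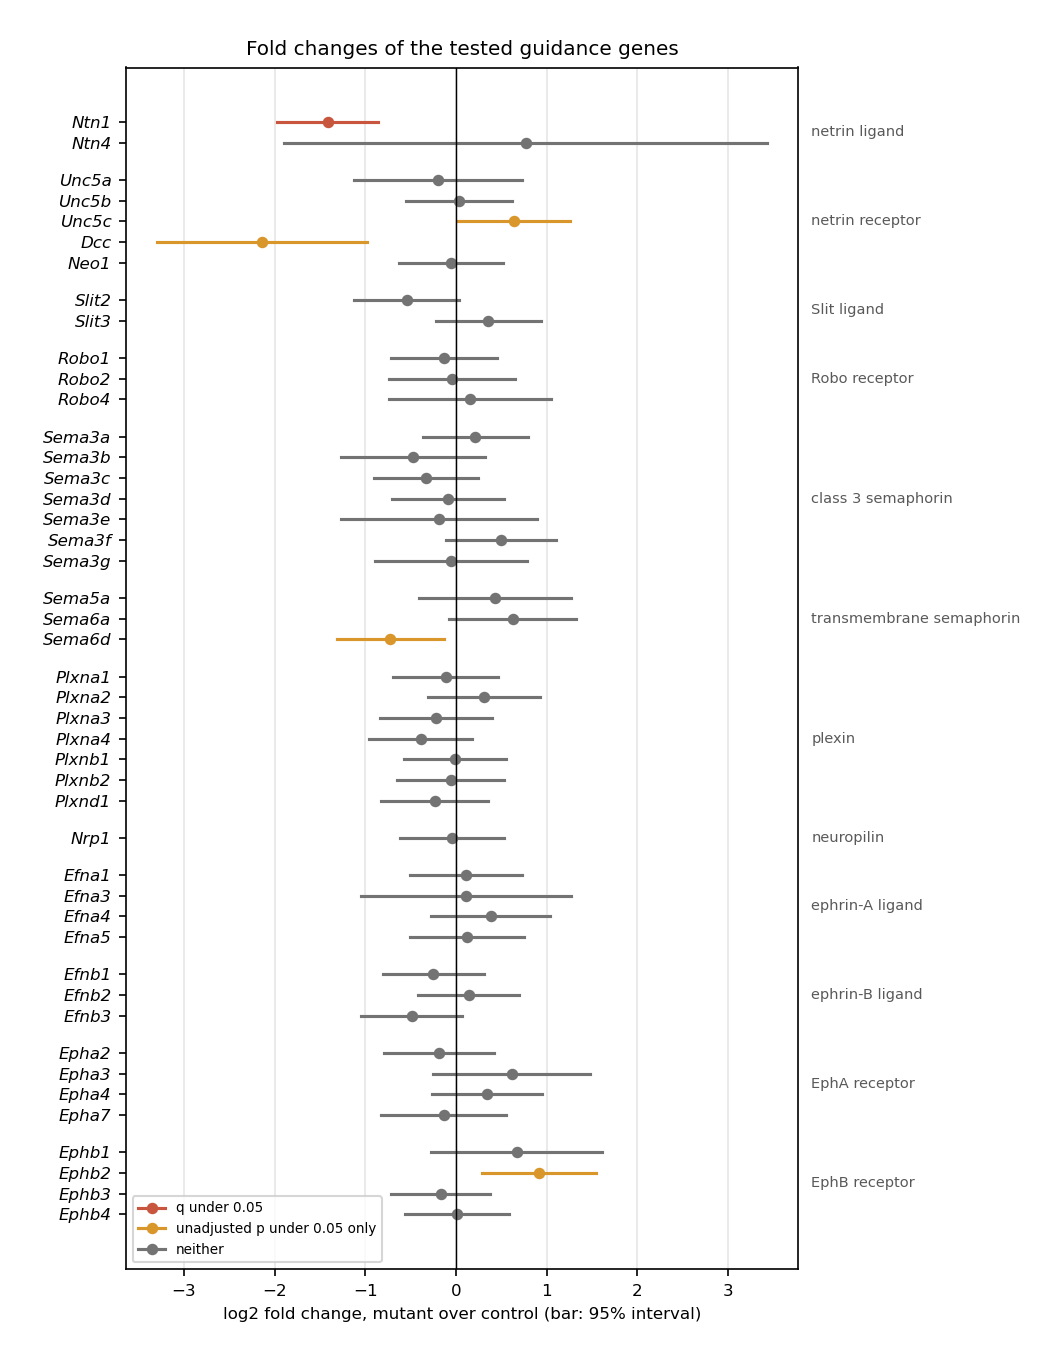
Log2 fold change (mutant over control) of the 45 tested members, with 95% intervals from the authors' test statistic; red marks q under 0.05 and amber an unadjusted p under 0.05 only. Ntn1 is called, at -1.42, and 40 of the 45 intervals cross 0.

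Ntn1 fell from 15.1 FPKM in control to 5.67 FPKM in mutant hearts, which is 2.67-fold lower. On the log2 scale the change was -1.42 (SE 0.286, 95% interval -1.98 to -0.86), with p = 7.19e-07 and q = 0.000425 in the authors' deposited table. The entry spans chr11:68209364-68386826 in mm10. Among tested members Ntn1 ranked 10 of 45 by FPKM in control and 22 in mutant hearts. Over the 11796 tested entries with at least 1 FPKM in both genotypes, 24 had a lower log2 fold change than Ntn1, and 9 were called lower, Ntn1 among them. In bulk RNA of whole hearts, fewer cells that express a gene and less RNA per cell cannot be told apart. Ntn4, the other netrin listed, which binds laminins, stood at 0.437 and 0.744 FPKM. Its interval was wide (log2 0.77, 95% interval -1.89 to 3.43), and its locus is shared with the entry Gm8580, at 47.3 and 64.8 FPKM, so no direction can be read for it.

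The 2 netrin receptors of highest expression were at similar levels in both genotypes. Unc5b, a receptor of the UNC5 family known from endothelium, read 33.0 FPKM in the controls and 33.8 FPKM in the mutants (log2 0.03, 95% interval -0.56 to 0.62). Neo1, neogenin, which also binds repulsive guidance molecules, read 14.7 and 14.1 FPKM (log2 -0.06, 95% interval -0.63 to 0.51). A 2-fold difference lies outside both intervals. The ratio of Ntn1 to Neo1 FPKM was 1.03 in control and 0.402 in mutant hearts, and that of Ntn1 to Unc5b was 0.458 and 0.168. Whether Ntn1 differed from each receptor in its change was not tested.

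Among the netrin receptors of lower expression, 2 had an unadjusted p under 0.05 and 0 were called. Unc5c, which mediates repulsion from netrin in axons, read 2.20 and 3.43 FPKM (log2 0.64, SE 0.315, with p = 0.0417 and q = 1.00 in the authors' deposited table) and was not called. Dcc, the receptor through which netrin attracts axons, read 0.114 FPKM in the controls and 0.0259 FPKM in the mutants, the lowest level of any tested member in both genotypes. On the log2 scale it differed by -2.14 (SE 0.593, p = 0.000311, q = 0.0673 in the authors' deposited table), so it missed the threshold. On the log2 scale with 0.1 FPKM added it was -0.77, and with 1 FPKM added -0.12. How many fragments lie behind such levels is unknown here. Unc5a was near 1 FPKM, at 0.896 and 0.779 FPKM.

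Slits and their receptors held 0 calls among 5 tested genes, and 0 of these 5 had an unadjusted p under 0.05. Slit2, host of Mir218-1, read 8.71 FPKM in the controls and 5.98 FPKM in the mutants (log2 -0.54, 95% interval -1.12 to 0.04, p = 0.0662 in the authors' deposited table). Slit3, host of Mir218-2 and the Slit best known from the developing heart and diaphragm, read 7.67 and 9.83 FPKM (log2 0.36, 95% interval -0.22 to 0.93). The 2 fold changes had opposite signs, and each interval includes 0. Summed over Slit2 and Slit3, the level was 16.4 FPKM in the controls and 15.8 FPKM in the mutants. Slit1, known mainly from the nervous system, was listed at 0.0273 and 0.0925 FPKM without a test.

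Robo receptor levels were close between genotypes. Robo1, the Robo gene of highest level here, read 5.06 and 4.63 FPKM (log2 -0.13), and Robo2 read 1.45 and 1.41 FPKM (log2 -0.05). Robo4, the endothelial member of the family, read 0.882 and 0.983 FPKM (log2 0.16, 95% interval -0.74 to 1.05). Slit ligand levels exceeded those of Robo1 in both genotypes, with Slit2 to Robo1 ratios of 1.72 in control and 1.29 in mutant hearts and Slit3 to Robo1 ratios of 1.51 and 2.12.

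Secreted class 3 semaphorins held 0 calls among 7 tested genes, and 0 had an unadjusted p under 0.05. Sema3c, the outflow tract cue, was the class 3 gene of highest level in control hearts, at 7.54 FPKM in the controls and 5.99 FPKM in the mutants (log2 -0.33, 95% interval -0.91 to 0.24). Sema3a, which signals through Nrp1 and plexins of the A class, read 5.92 and 6.85 FPKM (log2 0.21, 95% interval -0.37 to 0.79). Sema3f, a ligand of Nrp2, read 5.27 and 7.43 FPKM (log2 0.50, 95% interval -0.11 to 1.11). Each of these 3 intervals includes 0. Sema3d, known from the epicardium and the patterning of pulmonary veins, read 2.87 and 2.71 FPKM. Sema3b, whose entry lies near that of Sema3f on chromosome 9, read 2.69 and 1.93 FPKM (log2 -0.47), with a sign opposite to that of Sema3f. Sema3g was near 1.2 FPKM in both genotypes, at 1.26 and 1.22 FPKM. Sema3e, which binds Plxnd1 without a neuropilin, stood at 0.190 and 0.167 FPKM.

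The transmembrane semaphorins included 1 gene with an unadjusted p under 0.05. Sema6d, which acts through Plxna1 and is known from chamber and trabecular morphogenesis in avian embryos, read 9.58 FPKM in the controls and 5.79 FPKM in the mutants, which is 1.65-fold lower. Its log2 difference of -0.73 (SE 0.301, 95% interval -1.32 to -0.14) had p = 0.0159 and q = 0.851 in the authors' deposited table and was not called. It had the highest level of the 10 semaphorins in control hearts. Sema6a, a ligand of Plxna2 and Plxna4, read 1.25 and 1.93 FPKM (log2 0.62, p = 0.0799 in the authors' deposited table). Sema5a, which carries thrombospondin repeats, read 0.401 and 0.542 FPKM.

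Plexins were among the most abundant guidance receptors, and 0 of 7 were called or had an unadjusted p under 0.05. Plxnd1, the endothelial receptor for Sema3e and for Sema3c with neuropilins, read 38.6 and 32.8 FPKM (log2 -0.23, 95% interval -0.82 to 0.36). Plxnb2 read 31.3 and 30.0 FPKM and Plxnb1 read 8.24 and 8.18 FPKM; both are receptors for class 4 semaphorins. For these 3 genes the interval excludes a 2-fold difference. Plxna1, the partner of Sema6d, read 8.05 and 7.45 FPKM (log2 -0.11). The ratio of Sema6d to Plxna1 was 1.19 in control and 0.777 in mutant hearts. Plxna4 read 5.17 and 3.94 FPKM (log2 -0.39), and Plxna3 read 3.18 and 2.73 FPKM (log2 -0.22). Plxna2, the class A plexin implicated in outflow tract septation, was the plexin with a fold change above 0, at 1.94 and 2.41 FPKM (log2 0.31, 95% interval -0.31 to 0.93).

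The 2 neuropilins differed in what the table allows. Nrp1, coreceptor for Sema3a and for VEGF, read 27.6 and 26.8 FPKM (log2 -0.04, 95% interval -0.62 to 0.53), and its entry also names the microRNA gene Mir1903. Nrp2, coreceptor for Sema3f, was listed at 5.08 FPKM in the controls and 9.04 FPKM in the mutants, a 1.78-fold higher value (log2 0.83). Its test carried the status of a failed computation, as did that of the noncoding entry that shares its locus, 4930487H11Rik, so these values have no error and support no call in either direction. Sema3f, its ligand, did not pass its own test, so no joint direction can be read for the pair.

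A-type ephrins, which are held in the membrane by a lipid anchor, had fold changes above 0 in all 4 tested genes, each with an interval that includes 0. Efna1, a ligand of Epha2 and Epha3 known from endothelium, read 17.7 and 19.0 FPKM (log2 0.11). Efna4 read 7.72 and 10.1 FPKM (log2 0.38, 95% interval -0.28 to 1.04), Efna5 read 2.98 and 3.24 FPKM, and Efna3 read 0.411 and 0.444 FPKM. Efna1, Efna3 and Efna4 are neighbours on chromosome 3, so their entries are not spread over the genome. Efna2 was listed at 0 in both genotypes because its entry falls in a locus of 46 further entries, all with the same status of too many fragments. That locus includes the abundant genes Bsg, Gpx4 and Rps15, also listed at 0, so the 0 of Efna2 is no measure of its level.

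B-type ephrins, which span the membrane, had the highest summed level of the ligand classes in both genotypes, with Efnb3 as the largest part. Efnb3 had the highest level of all tested members in both genotypes, at 52.3 FPKM in the controls and 37.2 FPKM in the mutants (log2 -0.49, SE 0.283, 95% interval -1.05 to 0.06, p = 0.0832 in the authors' deposited table). The interval includes 0, and the gene was not called. Efnb2, the arterial ephrin, read 17.1 and 18.9 FPKM (log2 0.14, 95% interval -0.42 to 0.69), and the X-linked gene Efnb1 read 14.4 and 12.1 FPKM (log2 -0.25). The summed level of the 3 B-type ephrins was 83.8 FPKM in the controls and 68.2 FPKM in the mutants, a gap that lay almost entirely in Efnb3.

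Among the 4 EphB receptors, Ephb2 had an unadjusted p under 0.05, and 0 were called. It read 2.84 FPKM in the controls and 5.36 FPKM in the mutants, a 1.89-fold higher level (log2 0.92, SE 0.319, 95% interval 0.29 to 1.54), with p = 0.00403 and q = 0.351 in the authors' deposited table. This was the largest positive fold change of the tested members. Ephb2 lies on chromosome 4 at chr4:136653610-136835935 in mm10, 12.0 Mb from Casz1, and any part of that linkage in the difference was not tested. Ephb4, the venous receptor of Efnb2, read 25.0 and 25.2 FPKM (log2 0.01, 95% interval -0.56 to 0.58), and the ratio of Efnb2 to Ephb4 was 0.684 in control and 0.747 in mutant hearts. The arterial and venous pair was therefore at similar levels in both genotypes. Ephb3 read 15.9 and 14.1 FPKM (log2 -0.17), and Ephb1 read 0.465 and 0.739 FPKM (log2 0.67, 95% interval -0.27 to 1.61).

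EphA receptors held 0 calls among 4 tested genes, and 0 had an unadjusted p under 0.05. Epha7, a receptor for A-type ephrins, read 6.95 and 6.32 FPKM (log2 -0.14). Epha2, which lies 7.48 Mb from Casz1 on chromosome 4, read 5.63 and 4.94 FPKM (log2 -0.19). Epha4, which binds ephrins of both classes, read 3.07 and 3.90 FPKM (log2 0.35). Epha3, known from the atrioventricular cushions, read 0.912 and 1.40 FPKM (log2 0.61, 95% interval -0.25 to 1.48). Summed over the 4 genes, the level was 16.6 FPKM in both genotypes.

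**Figure D3:**
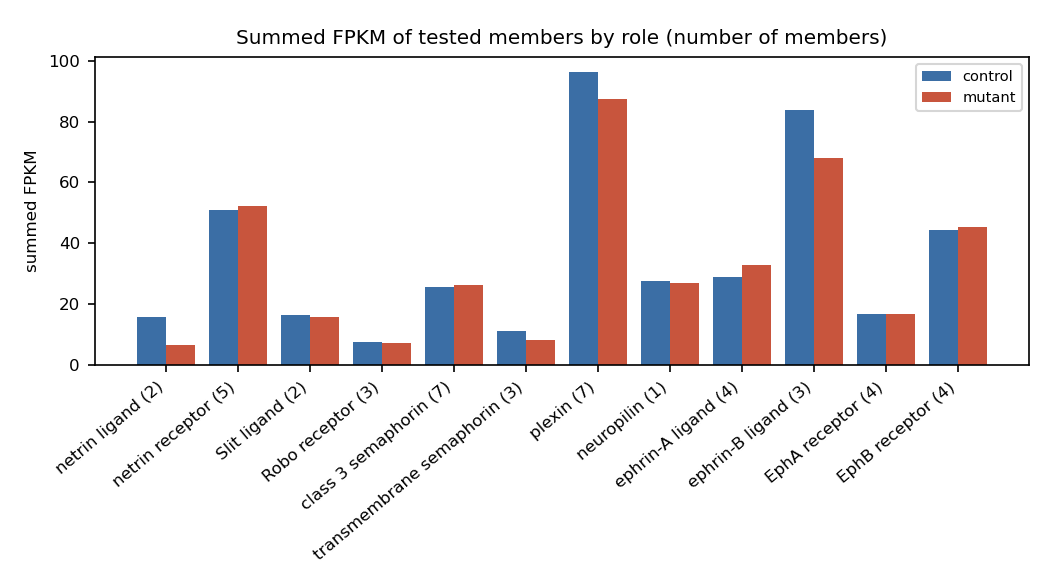
Summed FPKM of the tested members of each role in control (blue) and mutant (red) hearts, with the number of members in parentheses and 1 pooled value per genotype, so without error bars. Netrin ligands go from 15.6 to 6.41 FPKM and ephrin-B ligands from 83.8 to 68.2 FPKM, while plexins, at 96.5 and 87.6 FPKM, have the highest sum.

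By level, 12 tested members had a mean of at least 10 FPKM over the 2 genotypes, 25 lay between 1 and 10 FPKM and 8 were under 1 FPKM. In control hearts the order from the top was Efnb3, Plxnd1, Unc5b, Plxnb2, Nrp1, Ephb4, Efna1, Efnb2, Ephb3 and Ntn1. In mutant hearts the first 9 were the same genes, with Unc5b and Plxnd1 changing places, and Neo1 took rank 10. Levels of neighbours in this order cannot be compared beyond their spread, since no value per heart is given. Summed over all tested members, receptors read 243 FPKM in the controls and 236 FPKM in the mutants, and ligands 182 and 158 FPKM. The lower ligand sum lay mostly in Efnb3 (52.3 and 37.2 FPKM) and Ntn1 (15.1 and 5.67 FPKM). By gene, 11 of 21 tested ligands had a log2 fold change above 0 (median 0.105). Among the 24 tested receptors 9 did (median -0.051).

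**Figure D4:**
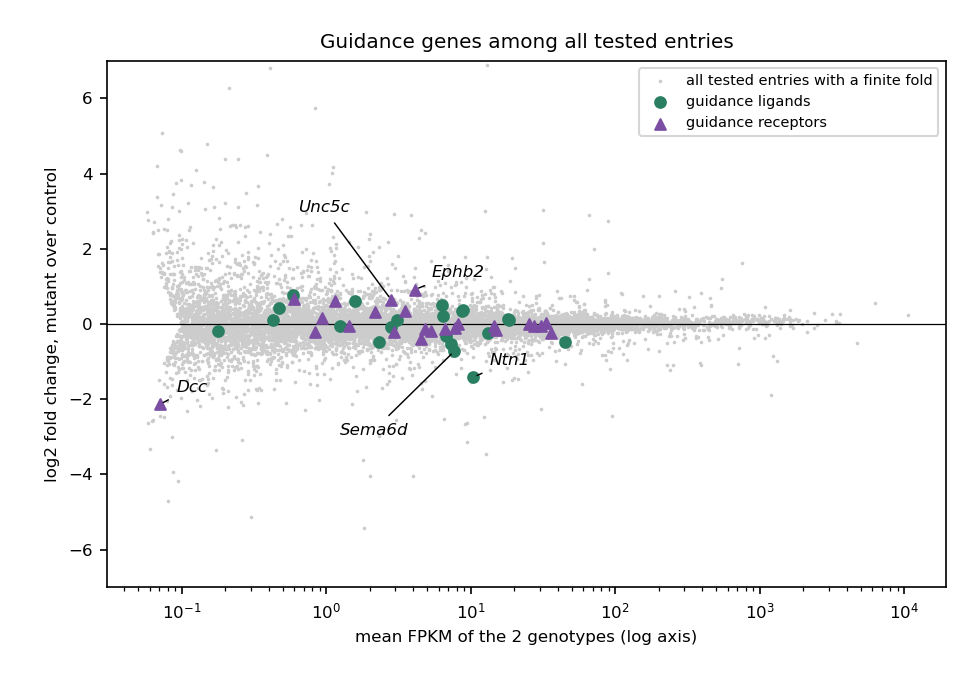
Log2 fold change (mutant over control) against mean FPKM (log axis) for every tested entry above 0 in both genotypes (grey; 4 lie outside the plotted range), with guidance ligands as green circles and receptors as purple triangles. Members with an unadjusted p under 0.05 are named; Ntn1, at -1.42, lies below the bulk of entries of similar level, while Dcc sits at the low end of expression.

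Other genes of the same families were examined as a list of 31, of which 23 were tested. In this list 0 were called, and the median log2 fold change was 0.02. The unadjusted p was under 0.05 for 2 of 23 (8.70%) in the authors' deposited table, both higher. For all tested entries that share was 3.17% (1.99% higher). With 2 such genes in a list chosen with earlier results known, the gap is no result about the list. These 2, Ntng1 (0.0774 and 0.218 FPKM) and Unc5d (0.0378 and 0.112 FPKM), were under 1 FPKM in both genotypes and are named after their values were seen. The 3 genes of highest level were Flrt3 and Flrt2, membrane proteins that bind UNC5 receptors, and Sema4c, a ligand of Plxnb2. Flrt3 read 10.9 and 10.3 FPKM, Flrt2 read 6.88 and 8.28 FPKM and Sema4c read 10.7 and 10.2 FPKM.

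Intracellular partners of the receptors, a list of 24 that were all tested, held 0 calls and 0 genes with an unadjusted p under 0.05 in the authors' deposited table, with a median log2 fold change of -0.03. Gipc1, an adaptor that binds neuropilin-1, read 76.2 and 75.9 FPKM. Mical2, of a flavoprotein family with members that act below plexins, read 54.7 and 49.1 FPKM. Dpysl3, a collapsin response mediator, read 58.3 and 39.2 FPKM (log2 -0.57), without passing the test.

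Several lists of tissue and cell type markers differed between the pooled genotypes. Where the cells holding these transcripts lay, inside or next to the heart, was not tested. Of all tested entries, 0.305% were called higher and 0.117% lower, and 1.99% were higher with an unadjusted p under 0.05. The marker lists were chosen with earlier results of these data known. In the foregut and pharyngeal epithelium list, 7 of 9 genes were called higher in the authors' deposited table. All 9 were higher with an unadjusted p under 0.05 there. The summed level was 3.72 FPKM in the controls and 19.9 FPKM in the mutants. In the pharyngeal and splanchnic mesoderm list 2 of 6 were called higher, with sums of 7.67 and 19.5 FPKM. All 6 were higher with an unadjusted p under 0.05 in the authors' deposited table. The smooth muscle list had 2 of 5 tested genes called higher. Of these 5, 4 had a log2 fold change above 0 and 1 below, Cnn1, at 131.6 and 96.0 FPKM (log2 -0.45, not called). Endothelial and epicardial lists held 0 calls among 8 and 5 genes, with sums of 178 and 156 FPKM and of 129 and 120 FPKM. The log2 fold change was below 0 for 7 of the 8 endothelial and all 5 epicardial genes. Cldn5 was the endothelial gene above 0, at 2.13 and 4.01 FPKM (p = 0.0414 in the authors' deposited table, not called). Neural crest and neuronal markers held 0 calls among 8 tested genes. Their sums of 18.3 and 23.8 FPKM mostly reflect Tubb3, at 13.7 and 17.3 FPKM. Of the 8, 6 had a log2 fold change above 0 and 2 below. The unadjusted p was under 0.05 for 2 in the authors' deposited table, Tfap2a (0.240 and 0.679 FPKM) and Tfap2b (0.0235 and 0.134 FPKM). Of 5 tested macrophage markers 1 was called lower, Lyz2, at 16.9 and 1.91 FPKM. The other 4 had log2 fold changes between -0.30 and -0.18 and were not called, so the list sum of 20.9 and 5.34 FPKM mostly reflects Lyz2. Erythroid markers held 0 calls among 3 tested genes, with sums of 196 and 219 FPKM. None of the tested markers was listed at 0 in either genotype, while Acta2, Myh6, Myh7, Hbb-y and Hba-x had too many fragments for a usable value. The part of these differences in the values of Ntn1, Ephb2, Unc5c, Sema6d, Dcc and Nrp2 was not tested, and the pooled values do not show whether these differences occurred in the same hearts.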

How the data were processed

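Total RNA of 6 individual hearts was sequenced, 3 per genotype. The submitters' processing notes name the mm10 build, Cuffdiff with Cufflinks 2.1.1, TopHat2 2.0.8 and Bowtie2 2.1.0.0. The deposited Cuffdiff table gives, per the file headers, FPKM per gene for each genotype, with replicates pooled by the authors. P-values and q-values were also computed by the authors. Library scaling and dispersion settings are not given in the sources used here.

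Entries were named from RefSeq (GRCm38.p6) and GENCODE tables (99.3% named), with 1 entry per gene, tested entries first and then by mean FPKM. Log2 fold changes were recomputed from FPKM with no pseudocount. The SE is the log2 fold change divided by the test statistic. Deposited p matched the normal tail of that statistic within 2.82e-06, and the same q followed from adjusting p over the tested entries with the Benjamini-Hochberg method. The calculations were tested on simulated data. Starts were moved to count from 1.

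Members and lists were chosen with earlier results of these data known. The text names every member, Casz1 and Nkx2-5, and of the other family and effector lists each called gene, each with an unadjusted p under 0.05 and at least 1 FPKM, or else the 3 of highest mean FPKM. Marker lists are given by counts and summed FPKM, and the markers named were chosen after their values were seen. Alternatives covered the q threshold, low FPKM, a minimum fold, pseudocounts, centring and the choice of entry. Python 3.11.15, numpy 2.4.6, pandas 2.3.3, scipy 1.17.1 and matplotlib 3.10.9 were used.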

Additional observations from a re-analysis of the deposited data

How the results depend on the processing

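Ntn1 was the 1 called member under a q of 0.01, after restricting to entries with at least 1 FPKM and readjusting, with a minimum 2-fold change at a pseudocount of 1 FPKM, and with the entry of highest FPKM whatever its status. At a q of 0.1 the count was 2, with Dcc added. The median log2 fold change of members (-0.045) was -0.0448 and -0.029 with pseudocounts of 0.1 and 1 FPKM, -0.0282 after centring on entries with at least 1 FPKM and -0.0539 over members with at least 1 FPKM. Under that filter 4 members in place of 5 had an unadjusted p under 0.05. Pseudocounts moved Dcc by more than its SE, and centring changed the sign of Plxnb1, which lies near 0. Counts of 0 in the other family and effector lists stayed at 0 under the alternatives run on them. No paired analysis was possible because the table has 1 pooled value per genotype, and leaving out each replicate was not run for the same reason. Depth is unknown, and most of the widest intervals were those of members with a mean under 1 FPKM.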
